A study of Mus musculus with 42 samples.

Results

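Polycomb repressive complex 1 (PRC1) subunit genes were followed through the conversion of mouse embryonic fibroblasts (MEF) into induced pluripotent stem cells (iPSC). The set held 9 of the 48321 gene names in the count tables: the chromodomain genes Cbx2, Cbx6, Cbx7 and Cbx8, the ring-finger genes Pcgf2 and Pcgf6, the ligase gene Rnf2, the polyhomeotic gene Phc1 and the DNA-binding subunit gene Kdm2b. They were found by gene name in both tables, and 8 of the 9 passed the filter on low counts. RNA-seq counts were available for 42 libraries in 14 groups of 3, sequenced in 2 batches by the labels, and groups were compared only within a batch. Batch 1 holds the naivex2 lines (nx2), from B6; 129S4-Tg(Tet1-mCherry)B37Koh mice crossed with the reporter line B6;CBA-Tg(Pou5f1-EGFP)2Mnn/J, with genotype Tg(mCherry)/wt; Tg(GFP)/wt. Its 7 groups are day 0 MEF, mCherry+/GFP- cells of days 10, 12 and 14, mCherry+/GFP+ cells of days 12 and 14, and iPSC clonal lines. Batch 2 holds the totalx2 lines (tx2), from B6- Tet1tm1.1Koh mice crossed with the reporter line B6;129S4-Pou5f1tm2Jae/J and with the same genotype entry, as mCherry+/GFP- cells of days 8, 10 and 12 and mCherry+/GFP+ cells of days 10 and 12. Batch 2 also holds Tet1 knockout (KO) iPSC clonal lines of genotype mut/mut;GFP/wt and wild-type (WT) iPSC clonal lines of genotype wt/wt;GFP/wt, both from B6- Tet1tm1Koh mice crossed with the reporter line B6;CBA-Tg(Pou5f1-EGFP)2Mnn/J. All animals were male by the labels. All sorted cells were mCherry+, that is, chosen for a reporter of Tet1, and the GFP gate is a reporter of Pou5f1. The 3 replicates are independent lines or clones, and iPSC were kept on feeder cells that were depleted before harvest.

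PRC1 is a chromatin repressor built on a RING-type ubiquitin ligase, RNF2 (RING1B) or RING1 (RING1A), that monoubiquitinates histone H2A, paired with 1 of the PCGF proteins. Canonical forms carry PCGF2 or BMI1 (PCGF4) with a CBX protein, whose chromodomain reads trimethylated lysine 27 of histone H3, and with a PHC protein, whose SAM domain polymerises. Variant forms carry RYBP or YAF2 in place of CBX and PHC, and one of them is brought to unmethylated CpG islands by the CXXC zinc finger of KDM2B. Which paralog fills a position differs between cell types, and CBX7 and PHC1 are known as the main forms of mouse embryonic stem cells.

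Libraries held 6540256 to 20783265 counts. The libraries with most mitochondrially encoded reads were replicate 1 of the nx2 day 10 GFP- cells at 8.99% and replicate 1 of the WT iPSC at 12.2%; fold changes of comparisons that hold them are given with and without them. For the tx2 GFP- cells of day 12, the mCherry gate of replicate 2 is given by its source name and not by its title. Tet1 held 54.4, 58.6 and 57.3 CPM (counts per 1000000, on totals scaled by the trimmed mean of M values) in the KO clones, against 1303, 823 and 874 CPM in the WT clones (log2 fold change -4.14 ± 0.18, edgeR adjusted p = 2.52e-11; -3.90 without WT replicate 1). The summed level of 10 pluripotency markers was 3.55 to 6.16 CPM in MEF and 3436 to 4772 CPM in the other nx2 groups. That of 10 fibroblast markers was 20880 to 21750 CPM in MEF and 564 to 5279 CPM in the other nx2 groups. In batch 2, which holds no MEF, the pluripotency sum ran from 697 to 4747 CPM. The fibroblast sum was 13530 to 21070 CPM in tx2 day 8 cells.

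Cbx6 could not be measured. Its gene body (GRCm38, chr15:79823896-79834688, minus strand) shares 10342 of 10793 bases, 95.8%, with Npcd on the same strand, and reads that fall in both genes were not counted. Cbx6 had 0 counts in 40 libraries and 1 count in 2 libraries, and Npcd itself had 0 to 35 counts. No level of Cbx6 is given, and shares among Cbx genes were taken over Cbx2, Cbx7 and Cbx8. Among the other members, Rnf2 shares 7.05% of its body but no exon base with a same-strand gene, Kdm2b shares 3.12% of its body and 7.65% of its exon bases, and the remaining 6 members share none.

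The promoters of Cbx7, Cbx8 and Phc1 are shown because these 3 genes carried the largest member changes between MEF and day 10. Each runs from 250 bases before to 50 bases after the gene's start in RefSeq (GRCm38.p6), all on the minus strand, at chr15:79932597-79932896 for Cbx7, chr11:119040864-119041163 for Cbx8 and chr6:122340178-122340477 for Phc1. Capitals mark every CG dinucleotide, the letters that the CXXC finger of KDM2B reads when unmethylated.
Cbx7: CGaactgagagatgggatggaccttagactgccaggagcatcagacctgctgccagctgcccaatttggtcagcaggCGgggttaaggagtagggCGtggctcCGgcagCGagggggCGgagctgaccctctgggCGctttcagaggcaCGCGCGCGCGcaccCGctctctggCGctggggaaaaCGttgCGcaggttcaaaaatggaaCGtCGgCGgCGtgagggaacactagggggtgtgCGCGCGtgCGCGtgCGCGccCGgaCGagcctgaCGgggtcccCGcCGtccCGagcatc
Cbx8: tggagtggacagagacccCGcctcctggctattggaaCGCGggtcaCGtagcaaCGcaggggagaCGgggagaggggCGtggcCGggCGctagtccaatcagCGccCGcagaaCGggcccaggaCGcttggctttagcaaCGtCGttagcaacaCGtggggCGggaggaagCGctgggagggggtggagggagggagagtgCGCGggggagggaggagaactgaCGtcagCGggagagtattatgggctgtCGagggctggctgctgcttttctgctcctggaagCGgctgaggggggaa
Phc1: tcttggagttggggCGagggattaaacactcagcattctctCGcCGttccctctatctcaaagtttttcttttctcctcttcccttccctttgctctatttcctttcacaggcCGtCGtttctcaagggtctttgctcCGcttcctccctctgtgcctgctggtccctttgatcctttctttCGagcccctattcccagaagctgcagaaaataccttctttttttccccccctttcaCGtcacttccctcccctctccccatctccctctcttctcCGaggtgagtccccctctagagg
Cbx7 held 33 CG dinucleotides in 300 bases (67.3% G or C), Cbx8 held 24 (66.0%) and Phc1 held 9 (52.0%). The median of 32851 mouse promoters of this length was 7, with 52.7% G or C, and 92.3% of them held as many CG dinucleotides as Cbx7 or fewer, 81.6% as Cbx8 and 56.5% as Phc1. Cbx7 and Phc1, which both rose, differ in CG content, and the CG-rich Cbx7 and Cbx8 moved in opposite directions. A relation between CG content and the changes was not tested. CACGTG, which reads the same on both strands and is the E-box of the MAX and MGA subunits that accompany PCGF6, occurred once in Cbx8, once in Cbx6 and once in Pcgf2, in no other member's entry, and in 7.15% of all promoters. Entries were found for 8 of the 9 members, without Cbx2.

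In nx2 cells sorted at day 10, Cbx7 rose over MEF while Cbx8 fell. Cbx7, which encodes a chromodomain subunit of canonical PRC1, had 135, 179 and 187 CPM in day 10 GFP- cells, against 1.53, 1.85 and 1.54 CPM in MEF. The groups were far apart, with a log2 fold change of 6.68 ± 0.15 (SE, edgeR quasi-likelihood test, adjusted p = 6.08e-19). Cbx8, its paralog, had 0.673, 0.990 and 0.499 CPM in day 10 cells, against 9.21, 6.90 and 7.92 CPM in MEF, with no overlap (-3.45 ± 0.32, adjusted p = 2.56e-09). Cbx2, which encodes the subunit that compacts nucleosomes, moved less: 14.48, 19.7 and 16.3 CPM in day 10 cells, against 22.8, 21.6 and 24.2 CPM in MEF (-0.44 ± 0.11, adjusted p = 0.000884). Cbx2 was not called with library totals alone, without the scaling (-0.15, adjusted p = 0.231). The median log2 fold change of all genes was 0.343 with library totals alone, against 0.063 with the scaling.

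The other positions of the complex changed in the same interval. Phc1 had 675, 523 and 539 CPM in day 10 cells, against 53.4, 52.0 and 52.1 CPM in MEF (3.46 ± 0.10, adjusted p = 4.55e-17). Its paralogs fell, Phc2 by 1.80 ± 0.07 to 65.6, 73.7 and 74.01 CPM in day 10 cells, against 245, 251 and 249 CPM in MEF, and Phc3 by 1.61 ± 0.10. Among the ring-finger partners, Pcgf6, of the variant complex with MGA and E2F6, had 84.7, 94.6 and 96.2 CPM in day 10 cells, against 24.3, 28.0 and 27.02 CPM in MEF (1.80 ± 0.08, adjusted p = 9.11e-15). Pcgf2 (MEL18), of canonical PRC1, had 94.5, 77.1 and 74.7 CPM in day 10 cells, against 43.0, 44.1 and 44.6 CPM in MEF (0.90 ± 0.08, adjusted p = 6.01e-10). Bmi1, its close paralog, fell by 0.87 ± 0.13 (adjusted p = 3.84e-06), Pcgf3 fell by 0.76 ± 0.08, and Pcgf1, the partner of KDM2B and BCOR, rose by 0.69 ± 0.18.

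The ligase genes Rnf2 and Ring1 were not called at day 10 against MEF. Rnf2 had 131, 86.2 and 86.1 CPM in day 10 cells, against 87.6, 84.6 and 84.9 CPM in MEF (0.23 ± 0.11, adjusted p = 0.0628). It was called with library totals alone (0.50, adjusted p = 7.35e-05) and with no low-count filter (0.26, adjusted p = 0.0354). The high value is replicate 1, the library with 8.99% mitochondrial reads, and without it the log2 fold change was 0.03 (adjusted p = 0.728). Without replicate 2 or 3 of the day 10 cells, which leaves replicate 1 with more weight, Rnf2 was called at 0.36 (adjusted p = 0.00751 and 0.00848). Ring1 was not called in any of the 13 comparisons of 2 groups. Kdm2b had 57.1, 78.1 and 69.6 CPM in day 10 cells, against 49.9, 49.9 and 45.8 CPM in MEF, a small rise with no overlap (0.49 ± 0.09, adjusted p = 6.48e-05).

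In all, 5 of the 8 members tested were called higher and 2 lower at day 10 against MEF, where 76.4% of all 16132 genes tested were called (38.8% higher and 37.6% lower), so a member's call alone says little here. The median log2 fold change of the 8 was 0.698, against 0.063 over all genes. Without the high-mitochondrial library the count of called members was also 7, with log2 fold changes of 6.84 for Cbx7, -3.39 for Cbx8, -0.33 for Cbx2, 3.36 for Phc1, 1.87 for Pcgf6, 0.81 for Pcgf2 and 0.63 for Kdm2b. In the paralogs named above it was -1.73 for Phc2, -1.71 for Phc3, -1.05 for Bmi1, -0.84 for Pcgf3 and 0.59 for Pcgf1, all still called. Over the whole route, nx2 iPSC against MEF, all 8 members were called, 7 higher and 1 lower, where 77.3% of genes were called (37.9% higher and 39.4% lower), and their median was 1.641 against 0.020. Fibroblast markers fell in 8 of 10 cases in each of these comparisons, and leukocyte markers in 4 of 5. Of 7 trophectoderm markers tested, 2 rose and 4 fell at day 10 and 1 rose and 4 fell in iPSC. The part of these markers in the member changes was not tested. In bulk libraries fewer cells of a type and less RNA per cell cannot be told apart.

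**Figure D1:**
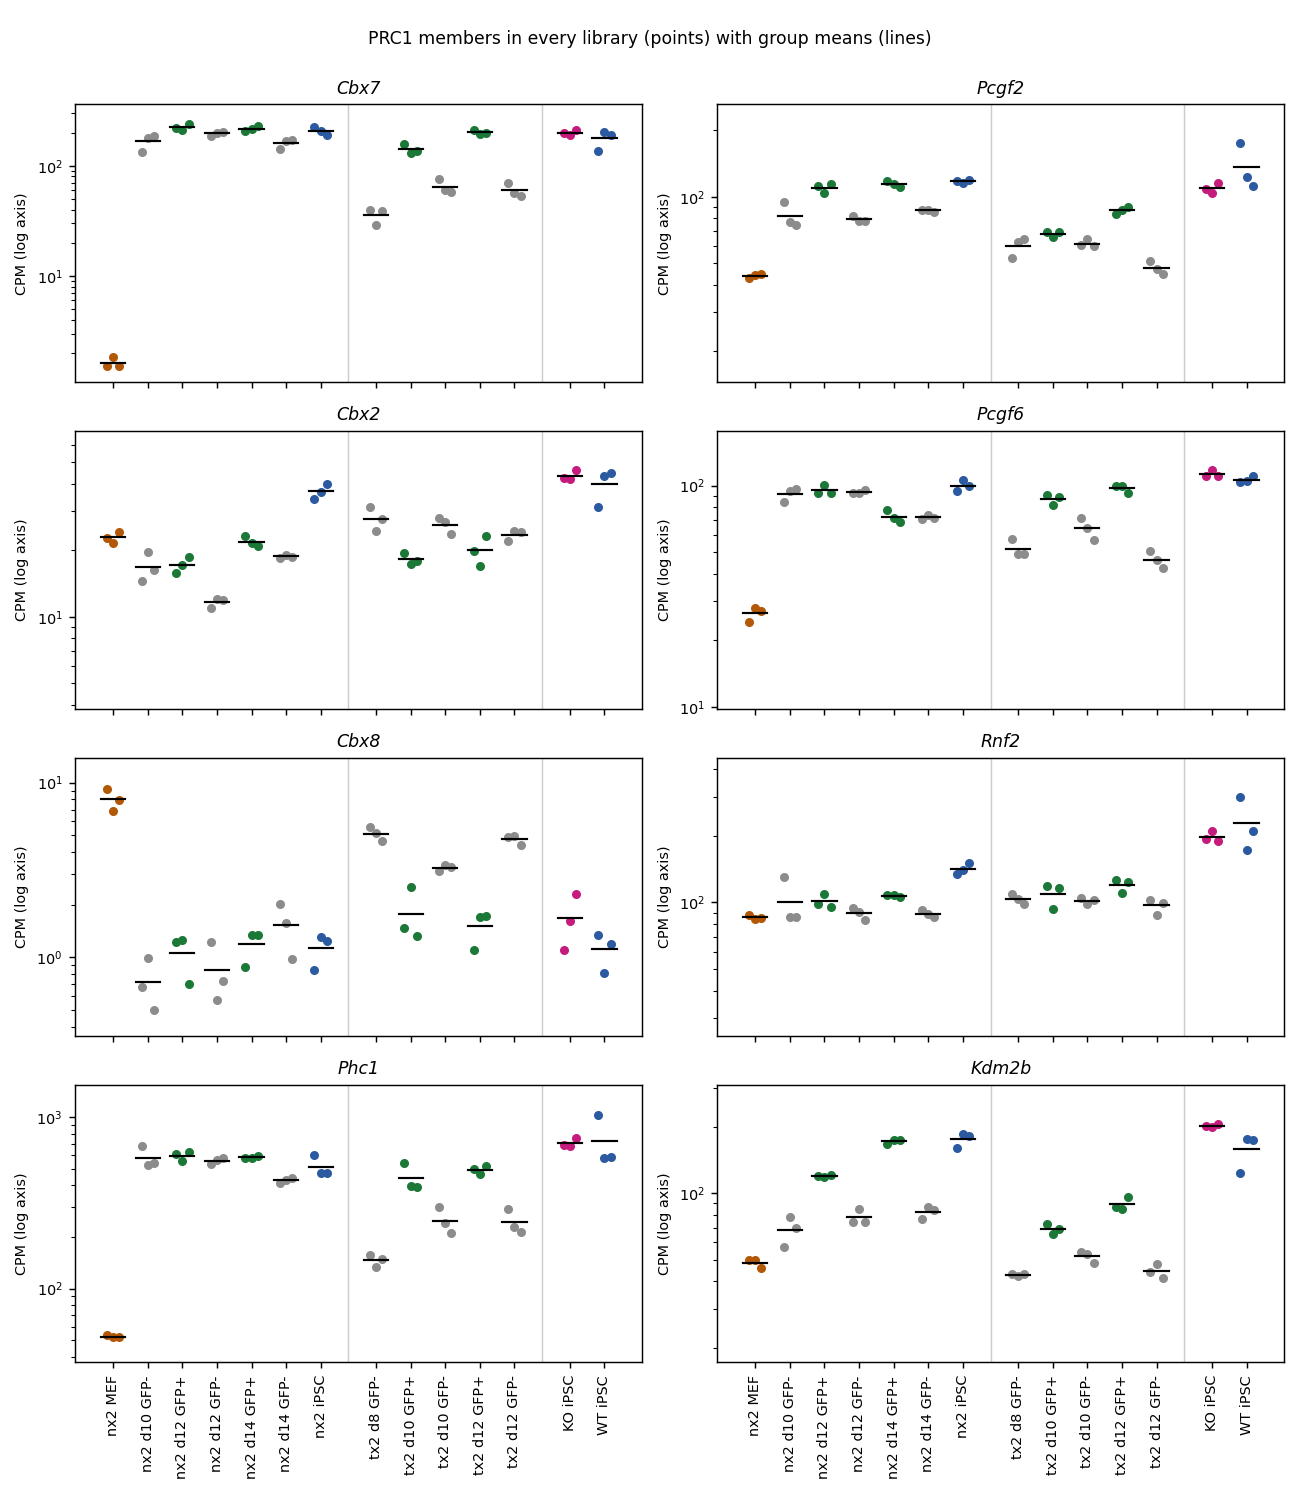
CPM of the 8 measurable members in each of the 42 libraries (points, log axis) with the mean of each group of 3 (black lines); orange is MEF, grey GFP-, green GFP+, blue iPSC with intact Tet1 and pink Tet1 KO iPSC. Cbx7 and Phc1 are low in MEF and high in all later nx2 groups, Cbx8 is the reverse, and in tx2 the green points of Cbx7 and Phc1 lie above the grey points of the same day.

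Set per exon length, these changes replaced the leading gene among Cbx2, Cbx7 and Cbx8 and among the Phc genes. Levels between genes were compared as CPM per kilobase of exon, and a share is a gene's part of the sum over the genes set side by side. Cbx7 took 86.1 ± 1.63% (SD, n = 3) of the sum of Cbx2, Cbx7 and Cbx8 in day 10 cells, against 3.26 ± 0.59% in MEF. Cbx2, which led in MEF, took 13.3 ± 1.4% in day 10 cells, against 68.9 ± 2.36% in MEF, and Cbx8 took 0.665 ± 0.22% in day 10 cells, against 27.9 ± 2.70% in MEF. Phc1 took 89.8 ± 1.48% of the Phc sum in day 10 cells, against 19.2 ± 0.37% in MEF, where Phc2 led.

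The Pcgf family changed in degree. Pcgf2 took 34.9 ± 1.75% of the Pcgf sum in day 10 cells, against 22.4 ± 0.12% in MEF, and Pcgf6 took 27.7 ± 3.95% in day 10 cells, against 9.47 ± 0.60% in MEF. Bmi1 took 9.75 ± 1.38% in day 10 cells, against 21.5 ± 0.66% in MEF. Rnf2 held most of the ligase sum in both, with 85.1 ± 5.39% in day 10 cells, against 81.1 ± 1.45% in MEF. Reads were counted over introns too, and with the length of the whole gene body in place of exons Cbx7 took 58.0% in day 10 cells, against 0.665% in MEF, and in iPSC Cbx2 led with 52.7% against 44.4% for Cbx7. The lead of Cbx7 over Cbx2 in iPSC therefore rests on the length used, and the direction of the change in its share between MEF and day 10 does not. The gene body used for Cbx7 was 55313 bases long (chr15:79915807-79971119, minus strand). It reaches upstream of the RefSeq promoter shown above (chr15:79932597-79932896), so its length depends on the start that is annotated. Shares with a body from that promoter were not computed. By gene body the mean share of Rnf2 in the ligase sum was 41.2% in day 10 cells, against 33.2% in MEF, and 47.8% in nx2 iPSC, with the highest libraries at 54.8% in day 10 cells and 50.7% in iPSC.

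**Figure D2:**
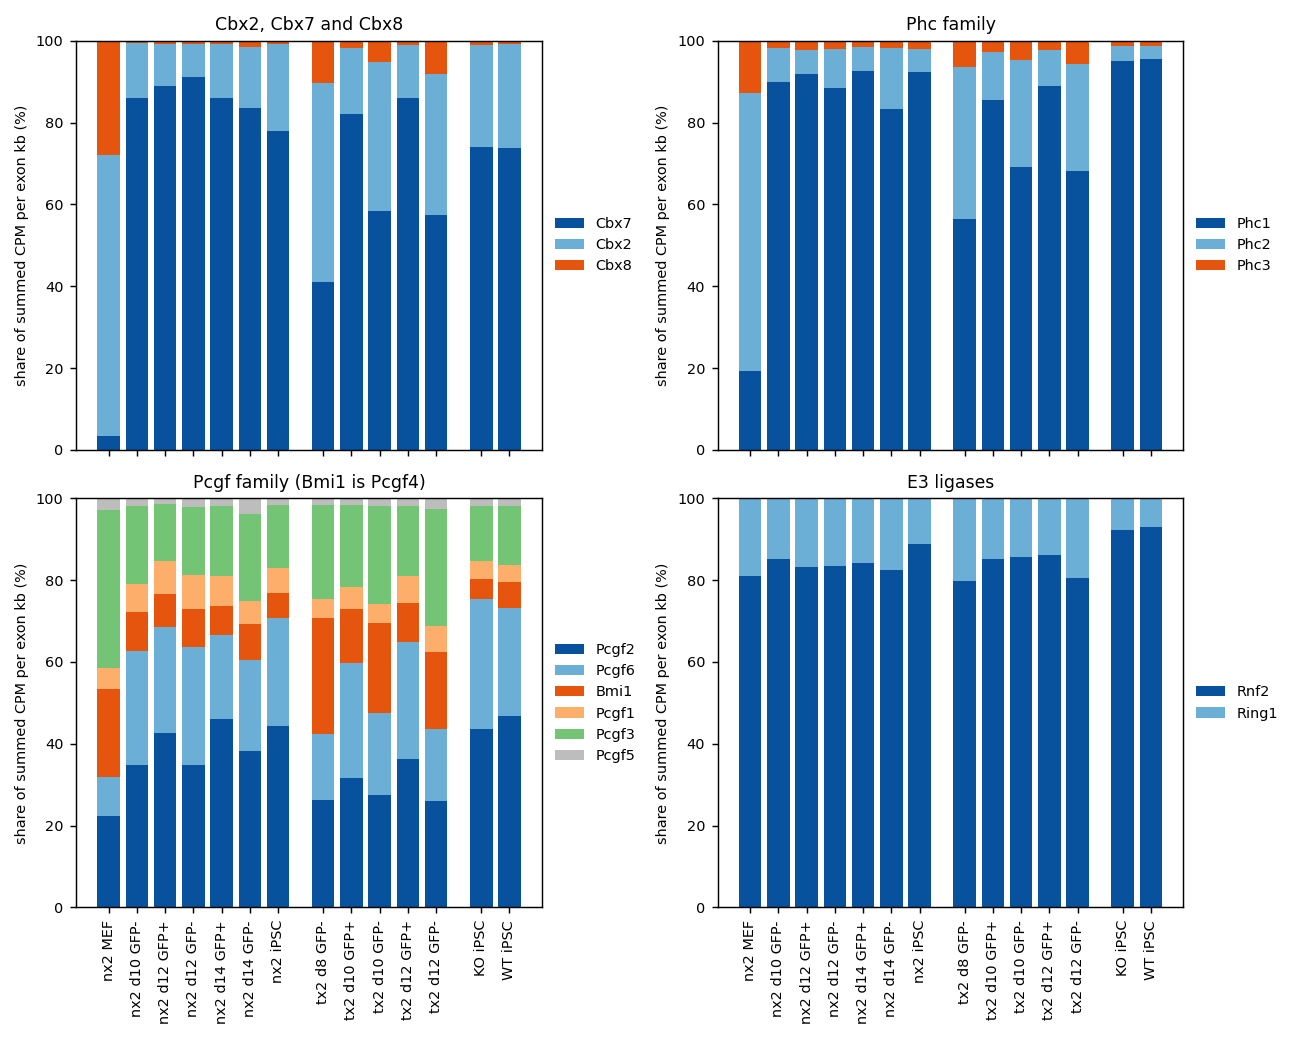
Mean share of each gene in the summed CPM per exon kilobase (percent, 3 libraries a group) of Cbx2, Cbx7 and Cbx8, of the Phc genes, of the Pcgf genes and of the ligase genes. In MEF the Cbx bar is mostly Cbx2 and the Phc bar mostly Phc2. Cbx7 and Phc1 fill most of both bars in every other group but tx2 day 8 cells. There Phc1 takes 56.3%, and Cbx2 (48.6%) leads Cbx7 (41.0%). In tx2 GFP- cells of days 10 and 12 Cbx7 takes 58.4% and 57.5% and Phc1 69.1% and 68.1%, less than in GFP+ cells.

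Ratios within a library do not depend on scaling between libraries, except through the small constant added to each CPM. That constant matters where a gene is low, as Cbx8 was in day 10 cells. The log2 ratio of Cbx7 to Cbx2 (CPM with 0.25 CPM added) was 3.29 ± 0.18 in day 10 cells and -3.62 ± 0.21 in MEF (SD, n = 3 each). The ratio of Cbx7 to Cbx8 was 7.45 ± 0.45 in day 10 cells and -2.12 ± 0.33 in MEF. The ratio of Phc1 to Phc2 was 3.01 ± 0.30 in day 10 cells and -2.24 ± 0.04 in MEF, and that of Pcgf2 to Bmi1 was 1.67 ± 0.13 in day 10 cells and -0.11 ± 0.05 in MEF. The libraries of the groups did not overlap in any of the 4. Without day 10 replicate 1 the differences between day 10 cells and MEF were 6.96 for Cbx7 to Cbx2, 9.70 for Cbx7 to Cbx8, 5.08 for Phc1 to Phc2 and 1.85 for Pcgf2 to Bmi1, against 6.91, 9.57, 5.25 and 1.77 with it. Each gave an exact permutation p of 0.1 (two-sided), which is the smallest that 3 against 3 libraries allow, and 0.144 after adjustment over the 78 ratio comparisons made.

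**Figure D3:**
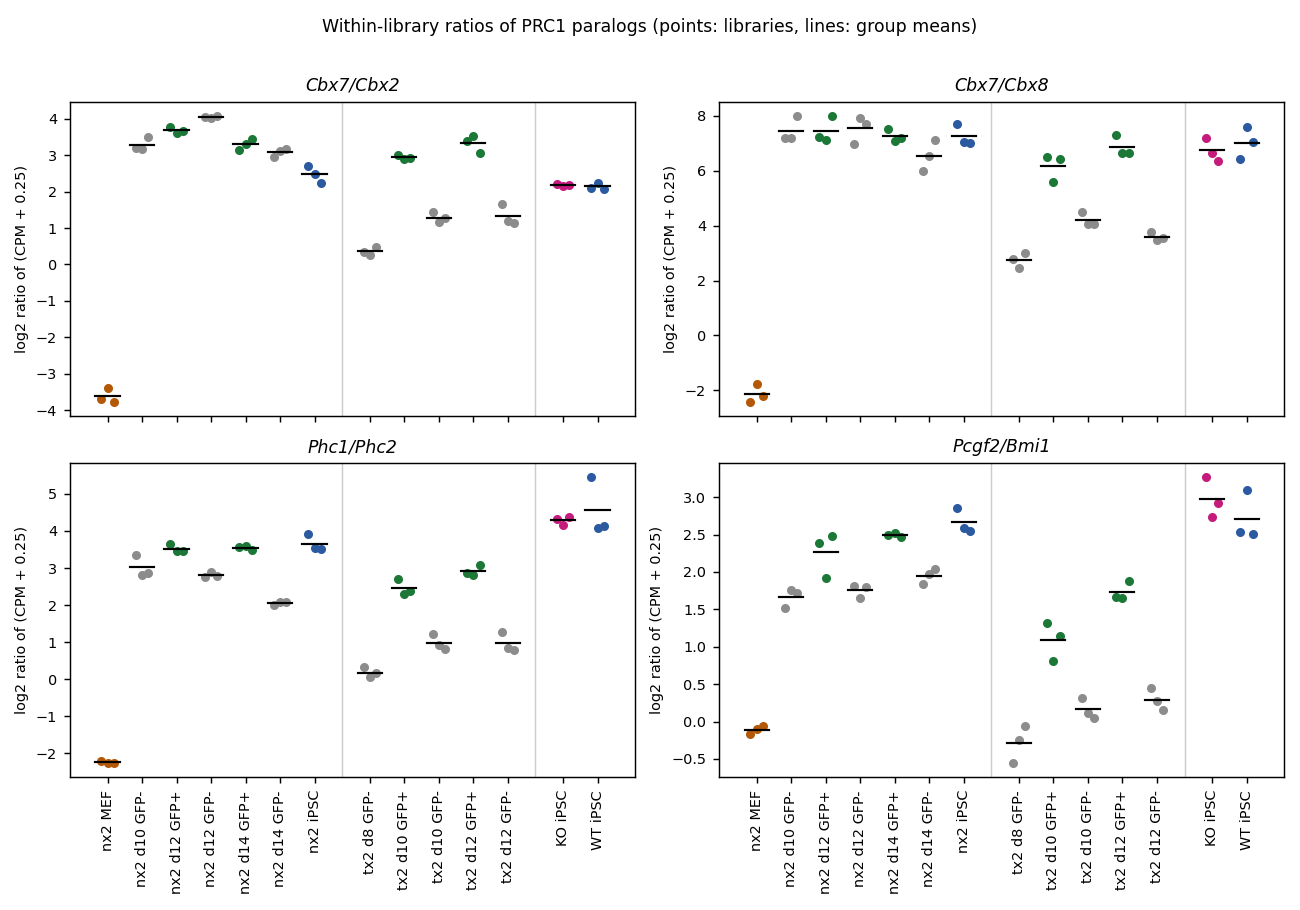
Log2 ratio of CPM (0.25 CPM added to each gene) for 4 paralog pairs in every library (points) with group means (black lines), colours as for the member levels. MEF are lowest in the panels of Cbx7 and Phc1, MEF and tx2 day 8 cells lie below 0 for Pcgf2 over Bmi1, and in tx2 the GFP+ cells lie above the GFP- cells of the same day with no overlap.

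Between days 10 and 14, nx2 cells that stayed GFP- showed small changes in 4 members, 2 higher and 2 lower, where 36.8% of all genes were called (20.3% higher and 16.5% lower). Phc1 had 410, 430 and 440 CPM at day 14, against 675, 523 and 539 CPM at day 10, with no overlap (-0.44 ± 0.09, adjusted p = 0.000965). Pcgf6 fell by 0.35 ± 0.07 (adjusted p = 0.000623), and Phc2, the paralog of Phc1, rose by 0.52 ± 0.07. Cbx7 was not called (-0.06 ± 0.10). Cbx8 was called higher at 1.06 ± 0.35 (adjusted p = 0.0206) on few reads, 16 to 35 a library at day 14 and 7 to 15 at day 10. It held 2.02, 1.57 and 0.977 CPM at day 14, against 0.673, 0.990 and 0.499 CPM at day 10, and the groups overlapped.

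The Cbx8 call was lost in a fit of these groups alone (1.06, adjusted p = 0.0745), without replicate 1 (1.01, adjusted p = 0.0531) or 3 (0.84, adjusted p = 0.1) of day 10 and without replicate 1 (0.82, adjusted p = 0.108) or 2 (1.04, adjusted p = 0.0523) of day 14. That of Kdm2b (0.27 ± 0.09, adjusted p = 0.0263) was lost, at 0.14 (adjusted p = 0.169) without the high-mitochondrial day 10 replicate 1, and was lost in a fit of these groups alone (adjusted p = 0.155), without day 10 replicate 3 (adjusted p = 0.0558) and without day 14 replicates 2 or 3 (adjusted p = 0.111 and 0.0696). Without the high-mitochondrial replicate Pcgf2 was called higher (0.18, adjusted p = 0.0165, against 0.08 with it), as it was with library totals alone (0.18, adjusted p = 0.0353), and 3 members were called. The change without it was -0.33 for Phc1 (adjusted p = 0.00387), -0.42 for Pcgf6 (adjusted p = 7.84e-05) and 0.45 for Phc2. It was 0.03 for Rnf2 without it and -0.18 with it, -0.20 for Cbx7 and 0.05 for Cbx2, none of them called.

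Trophectoderm markers rose in 7 of 7 tested cases in the same comparison, with a summed level of 494 to 578 CPM at day 14 against 228 to 251 CPM at day 10, and fibroblast markers in 7 of 10. Their part in the member changes was not tested.

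GFP+ nx2 cells, which express the Pou5f1 reporter, had more Kdm2b and Pcgf2 than GFP- cells of the same day, while Cbx7 and Phc1 differed by 0.45 or less on the log2 scale. At day 12, 3 members were called, all higher, where 16.6% of genes were called (9.93% higher and 6.69% lower). Kdm2b had 119.5, 119 and 121 CPM in GFP+ cells, against 74.1, 85.0 and 74.6 CPM in GFP- cells (0.62 ± 0.09, adjusted p = 6.6e-05). Pcgf2 had 112, 104 and 115 CPM in GFP+ cells, against 81.5, 77.7 and 77.9 CPM in GFP- cells (0.48 ± 0.07, adjusted p = 0.0001). Cbx2 had 15.7, 17.1 and 18.6 CPM in GFP+ cells, against 10.95, 12.1 and 11.9 CPM in GFP- cells (0.55 ± 0.11, adjusted p = 0.00154). In all 3 genes every GFP+ library lay above every GFP- library. Trophectoderm markers fell in 5 of 7 tested cases in the same comparison, with 136 to 143 CPM summed in GFP+ cells against 264 to 288 CPM in GFP- cells, and fibroblast markers were called in 0 of 10 (edgeR). Their part in the member changes was not tested.

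At day 14, 4 members were called higher and none lower, where 31.3% of genes were called (14.4% higher and 16.9% lower). Kdm2b had 167, 175 and 174 CPM in GFP+ cells, against 76.7, 86.7 and 83.7 CPM in GFP- cells, the largest of the 8 members at this day (1.06 ± 0.09, adjusted p = 3.22e-08). Phc1 rose by 0.45 ± 0.09, Cbx7 by 0.43 ± 0.10 and Pcgf2 by 0.40 ± 0.07. Rnf2 was not called (0.27 ± 0.11, adjusted p = 0.0721), though its groups did not overlap. It was called with RLE size factors (adjusted p = 0.0459), by DESeq2 (adjusted p = 0.0435) and in a fit of these groups alone (0.29, adjusted p = 0.00063). Cbx2 was not called either (0.22 ± 0.11), but was in a fit of these groups alone (0.24, adjusted p = 0.0376). Among the paralogs, Phc2 fell by 0.61 ± 0.07 at day 12 and by 1.04 ± 0.07 at day 14, and Pcgf5, of a variant complex, fell by 0.93 ± 0.12 at day 14.

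Scml2, an MBT-domain gene linked to canonical PRC1, rose by 2.24 ± 0.24 at day 12 and by 2.38 ± 0.23 at day 14. It held 11.56, 13.1 and 14.1 CPM in day 14 GFP+ cells, against 2.48, 2.13 and 2.87 CPM in GFP- cells. The difference of the GFP effect between days 14 and 12 was called for 0 of 8 members (edgeR quasi-likelihood test, 1.54% of genes called, 0.688% higher and 0.855% lower). The one with the lowest p was Kdm2b at 0.44 ± 0.13 (adjusted p = 0.102), and it was called with the line as a replicate block (0.44, adjusted p = 0.0435) and by DESeq2 (adjusted p = 0.0166). Trophectoderm markers fell in 7 of 7 tested cases in day 14 GFP+ cells (144 to 160 CPM summed, against 494 to 578 CPM in GFP- cells), fibroblast markers fell in 3 of 10 (1642 to 2709 CPM summed, against 3210 to 5279 CPM in GFP- cells), and their part was not tested. In the difference between the days, 3 of 7 trophectoderm markers were lower.

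Along the GFP+ route from day 12 to iPSC, Kdm2b rose at day 14, Cbx2 at day 14 and in iPSC, and Rnf2 in iPSC. At day 14 against day 12, 2 members were called higher and 1 lower, where 30.5% of genes were called (14.5% higher and 16% lower): Kdm2b rose by 0.52 ± 0.09, Cbx2 by 0.35 ± 0.11, and Pcgf6 fell by 0.40 ± 0.07. The Cbx2 call was lost without day 12 replicate 1 (0.29, adjusted p = 0.0862) or 2 (0.35, adjusted p = 0.0523) and without day 14 replicate 1 (0.31, adjusted p = 0.0792), and with no low-count filter (0.35, adjusted p = 0.0524). In this comparison 7 of 10 fibroblast markers rose (1642 to 2709 CPM summed at day 14, against 564 to 1096 CPM at day 12), as did 3 of 7 trophectoderm markers, and their part in the member changes was not tested.

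In iPSC against day 14 GFP+ cells, 3 were called higher and none lower, where 46.8% of genes were called (24.3% higher and 22.5% lower). Cbx2 had 34.2, 36.7 and 39.9 CPM in iPSC, against 23.2, 21.5 and 20.8 CPM in day 14 GFP+ cells (0.76 ± 0.11, adjusted p = 6.41e-06). Pcgf6 had 94.3, 106 and 99.6 CPM in iPSC, against 77.2, 71.3 and 68.6 CPM in day 14 GFP+ cells (0.46 ± 0.07, adjusted p = 2.32e-05), so its dip at day 14 was not kept. Rnf2 had 134, 141 and 151 CPM in iPSC, against 108, 108 and 106 CPM in day 14 GFP+ cells (0.41 ± 0.11, adjusted p = 0.00501). Phc1 was not called (-0.18 ± 0.09), but was lower without iPSC replicate 1 (-0.32, adjusted p = 0.0063), whose 599.8 CPM stood above 474 and 469 CPM in the other two, and with library totals alone (-0.23, adjusted p = 0.0369). The iPSC held 1294 to 3447 CPM of summed fibroblast markers, against 1642 to 2709 CPM in day 14 GFP+ cells, and 5 of 10 of these markers were called higher (median log2 fold change 1.14). Of 7 trophectoderm markers 4 were called lower, and the part of both lists in the member changes was not tested.

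The order of the nx2 groups differed by member. For Cbx7 it was day 12 GFP+ (223 ± 15.04 CPM), day 14 GFP+ (217 ± 11.9), iPSC (207 ± 17.01), day 12 GFP- (197 ± 9.31), day 10 GFP- (167 ± 28.4), day 14 GFP- (161 ± 15.3) and MEF (1.64 ± 0.19). The libraries of each group overlapped those of the next, except that MEF stood apart. For Kdm2b it was iPSC (176 ± 14.0 CPM), day 14 GFP+ (172 ± 4.39), day 12 GFP+ (119.6 ± 1.01), day 14 GFP- (82.4 ± 5.14), day 12 GFP- (77.9 ± 6.18), day 10 GFP- (68.3 ± 10.57) and MEF (48.5 ± 2.36). Here the libraries of day 14 GFP+, day 12 GFP+ and day 10 GFP- cells each stood apart from the group next below, and the other neighbours overlapped.

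In the tx2 lines, whose labelled stages begin earlier, Cbx7 and Phc1 were higher in GFP+ than in GFP- cells at both days compared. Day 8 GFP- cells held 39.9, 29.2 and 38.5 CPM of Cbx7 and 157, 133 and 148 CPM of Phc1, with no MEF in this batch to compare. In cells that stayed GFP-, Cbx7 rose by 0.75 ± 0.15 (adjusted p = 0.000929) and Phc1 by 0.75 ± 0.19 (adjusted p = 0.00528) at day 12 against day 8, and Bmi1 fell by 0.91 ± 0.18 to 37.4, 38.9 and 40.3 CPM at day 12, against 77.9, 73.7 and 67.6 CPM at day 8. With Pcgf2 lower (-0.33 ± 0.12, adjusted p = 0.0493), 3 members were called there, where 31.6% of genes were called (17.1% higher and 14.5% lower). The Pcgf2 call was lost without day 12 replicates 1, 2 or 3 (adjusted p = 0.0757, 0.147 and 0.196) and without day 8 replicates 2 or 3 (adjusted p = 0.165 and 0.217), with DESeq2 (adjusted p = 0.0556), with RLE size factors (adjusted p = 0.0567) and with no low-count filter (adjusted p = 0.118). Fibroblast markers rose in 1 and fell in 5 of 10 cases in this comparison, with 9292 to 12460 CPM summed at day 12 against 13530 to 21070 CPM at day 8. Trophectoderm markers rose in 6 of 7, with 127 to 195 CPM summed at day 12 against 40.3 to 70.9 CPM at day 8, and the part of both lists was not tested.

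At day 10, 4 members were called higher and 2 lower in GFP+ against GFP- tx2 cells, where 22.4% of genes were called (13% higher and 9.36% lower). Cbx7 had 157, 132 and 136 CPM in GFP+ cells, against 75.3, 59.9 and 57.8 CPM in GFP- cells (1.14 ± 0.15, adjusted p = 1.1e-05). Phc1 had 538, 396 and 393 CPM in GFP+ cells, against 297, 239.7 and 211 CPM in GFP- cells (0.83 ± 0.19, adjusted p = 0.00294). Both were higher in every GFP+ library. Pcgf6 rose by 0.44 ± 0.09 and Kdm2b by 0.41 ± 0.11, while Cbx2 had 19.4, 17.3 and 17.9 CPM in GFP+ cells, against 27.8, 26.8 and 23.6 CPM in GFP- cells (-0.52 ± 0.14, adjusted p = 0.0112).

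Cbx8 fell at day 10 (-0.85 ± 0.28, adjusted p = 0.0324), with 1.48, 2.52 and 1.33 CPM in GFP+ cells, against 3.11, 3.36 and 3.28 CPM in GFP- cells. The Cbx8 call was lost without replicate 1 or 3 of the GFP+ cells (adjusted p = 0.111 and 0.126) or 2 or 3 of the GFP- cells (adjusted p = 0.0685 and 0.0572), in a fit of these groups alone (adjusted p = 0.0797) and with no low-count filter (adjusted p = 0.0767). That of Kdm2b was lost with library totals alone (0.40, adjusted p = 0.0669), without GFP+ replicate 1 (adjusted p = 0.0649) and without GFP- replicate 3 (adjusted p = 0.0746). Phc2 fell by 0.65 ± 0.10 and Bmi1 by 0.78 ± 0.18. All 5 leukocyte markers rose in the same comparison, with 49.2 to 149 CPM summed in GFP+ cells against 10.2 to 23.7 CPM in GFP- cells, and their part in the member changes was not tested. Fibroblast markers were called higher in 1 and lower in 1 of 10 cases, with 4399 to 11780 CPM summed in GFP+ cells against 3011 to 8488 CPM in GFP- cells, and trophectoderm markers higher in 1 and lower in 2 of 7.

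At day 12, Cbx7, Phc1, Pcgf2, Pcgf6 and Kdm2b, were called higher and Cbx8 lower in GFP+ cells, 6 of 8 members where 61.6% of all 15197 genes tested were called (31.2% higher and 30.4% lower). Cbx7 had 212, 196 and 197 CPM in GFP+ cells, against 70.0, 56.8 and 53.6 CPM in GFP- cells (1.74 ± 0.15, adjusted p = 1.11e-08). Phc1 had 498, 463 and 519 CPM in GFP+ cells, against 291, 229 and 215 CPM in GFP- cells (1.01 ± 0.19, adjusted p = 0.000133). Cbx8 had 1.10, 1.70 and 1.73 CPM in GFP+ cells, against 4.87, 4.94 and 4.40 CPM in GFP- cells (-1.65 ± 0.27, adjusted p = 3.12e-05). None of the 3 genes overlapped between the groups.

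Pcgf6 had 99.4, 99.5 and 92.6 CPM in GFP+ cells, against 50.5, 45.9 and 42.6 CPM in GFP- cells (1.06 ± 0.09). Pcgf2 rose by 0.87 ± 0.12 and Kdm2b by 1.00 ± 0.11, while Phc2 fell by 0.93 ± 0.10, Phc3 by 0.69 ± 0.16 and Bmi1 by 0.58 ± 0.18. Rnf2 was not called (0.31 ± 0.14, adjusted p = 0.0632), but was with the line as a replicate block (0.31, adjusted p = 0.0289), which left no other member of this comparison on the other side of the threshold, and with library totals alone (0.26, adjusted p = 0.0446) or a fit of these groups alone (0.28, adjusted p = 0.00781). Cbx2 was not called either (-0.22 ± 0.14), but was without GFP+ replicate 3 (-0.38, adjusted p = 0.0484).

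Cbx7 took 85.9 ± 1.93% of the sum of Cbx2, Cbx7 and Cbx8 per exon kilobase in day 12 GFP+ cells, against 57.5 ± 4.38% in GFP- cells, and Phc1 took 88.9 ± 0.87% of the Phc sum in GFP+ cells, against 68.1 ± 3.94% in GFP- cells. By gene-body length the share of Cbx7 was 57.3% in GFP+ cells, against 22.04% in GFP- cells, where Cbx2 led with 57.4%. All 10 fibroblast markers fell in this comparison, with 2207 to 2646 CPM summed in GFP+ cells against 9292 to 12460 CPM in GFP- cells, and their part in the member changes was not tested. Leukocyte markers rose in 2 of 5 cases, and trophectoderm markers rose in 2 and fell in 1 of 7.

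The GFP effect itself was larger at day 12 than at day 10 for 4 members, where 27.3% of genes were called for this difference (10.5% higher and 16.7% lower). Pcgf2 had the largest, 0.72 ± 0.17 (adjusted p = 0.00504), then Pcgf6 at 0.63 ± 0.13 (adjusted p = 0.00179), Cbx7 at 0.60 ± 0.21 (adjusted p = 0.0359) and Kdm2b at 0.59 ± 0.15 (adjusted p = 0.00761). Leaving out 1 library ended the call of Cbx7 in 9 of 12 cases (0.45 to 0.65, adjusted p up to 0.149), and it was also lost with library totals alone (0.57, adjusted p = 0.111) and with no low-count filter (0.59, adjusted p = 0.0724), as was that of Kdm2b with library totals alone (0.56, adjusted p = 0.058). The GFP effect on all 10 fibroblast markers and 3 of 5 leukocyte markers was lower at day 12 than at day 10. Between day 12 and day 10 GFP+ cells, Cbx7 (0.51 ± 0.14), Kdm2b (0.37 ± 0.11) and Pcgf2 (0.35 ± 0.12) were called higher, where 25.1% of genes were called (12.2% higher and 12.9% lower).

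These 3 day 12 against day 10 calls were thin. Pcgf2 was lost without any 1 of the 6 libraries (adjusted p = 0.0616 to 0.136). Cbx7 was lost without day 12 replicate 1 and day 10 replicates 2 and 3 (adjusted p = 0.0608, 0.0854 and 0.0627), and Kdm2b without day 10 replicates 2 and 3 and day 12 replicate 3 (adjusted p = 0.0941, 0.056 and 0.0877). With library totals alone Cbx7 (0.47, adjusted p = 0.0627) and Kdm2b (0.33, adjusted p = 0.114) were not called. Fibroblast markers fell in 9 of 10 cases in this comparison, with 2207 to 2646 CPM summed at day 12 against 4399 to 11780 CPM at day 10. Leukocyte markers fell in 4 of 5, with 39.3 to 65.3 CPM at day 12 against 49.2 to 149 CPM at day 10, and trophectoderm markers rose in 4 of 7. Their part in the member changes was not tested.

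**Figure D4:**
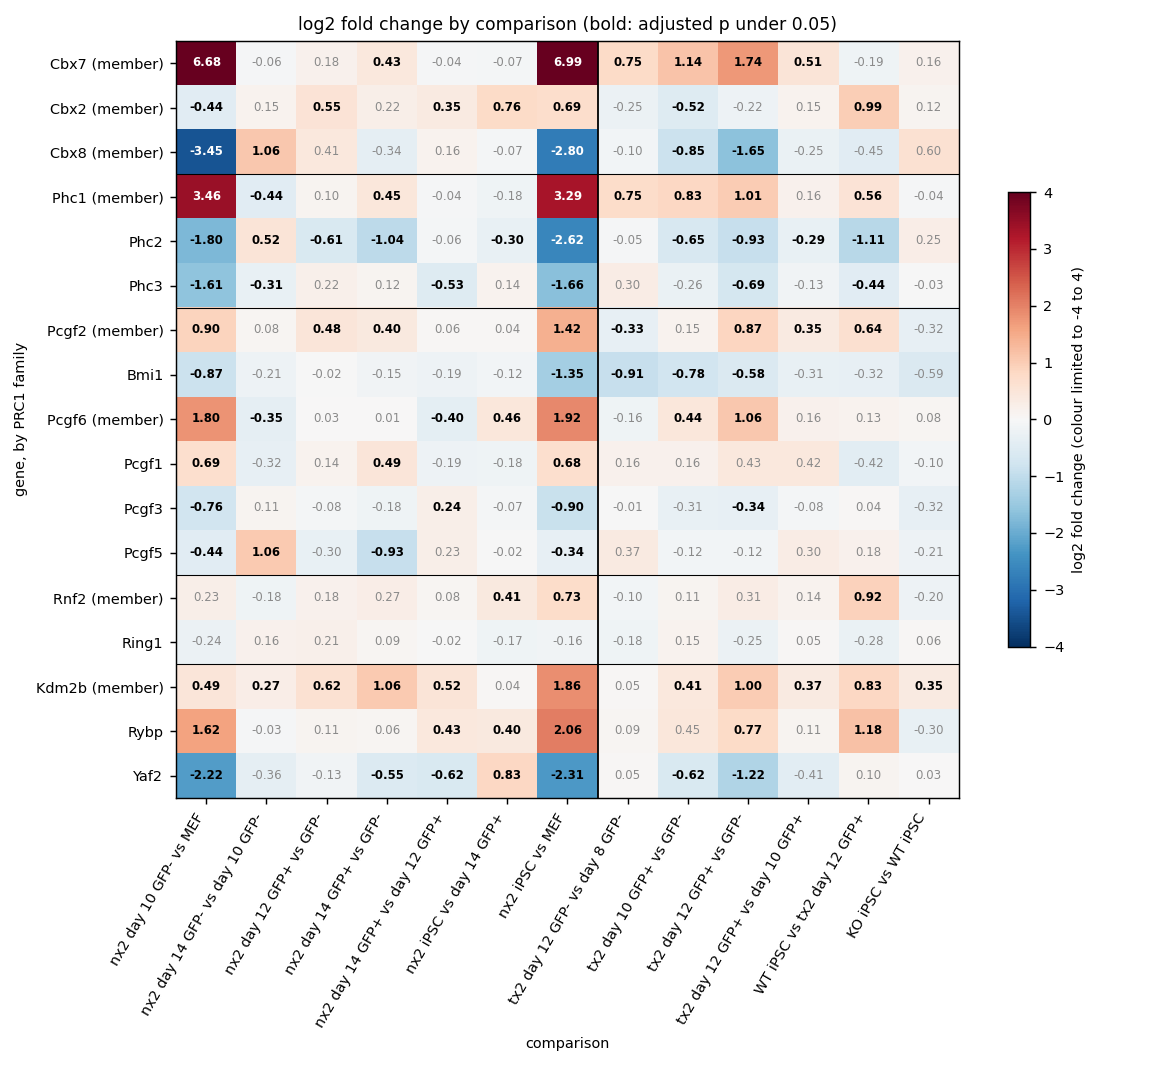
Log2 fold change of the 8 measurable members and their paralogs in the 13 comparisons of 2 groups (columns, nx2 to the left of the line), by family; bold marks an adjusted p under 0.05 and the colour scale ends at 4 in either direction. Cbx7 and Phc1 are red where Cbx8 and Phc2 are blue at nx2 day 10 against MEF, nx2 iPSC against MEF and both tx2 GFP gates.

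WT iPSC were set against tx2 day 12 GFP+ cells of the same batch, a comparison in which strain and stage change together. Of the 8 members 5 were called higher and none lower, where 51.1% of genes were called (25% higher and 26% lower). Cbx2 had 31.4, 43.3 and 44.6 CPM in WT iPSC, against 19.9, 16.9 and 23.2 CPM in day 12 GFP+ cells (0.99 ± 0.14, adjusted p = 9.11e-06). Rnf2 had 300.0, 173 and 211 CPM in WT iPSC, against 126, 111 and 124 CPM in day 12 GFP+ cells (0.92 ± 0.14, adjusted p = 2.88e-05). Kdm2b rose by 0.83 ± 0.11 and Pcgf2 by 0.64 ± 0.12. Cbx7 (-0.19 ± 0.14), Cbx8 (-0.45 ± 0.31) and Pcgf6 (0.13 ± 0.09) were not called, nor were they without WT replicate 1 (-0.02, -0.54 and 0.16).

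Of 7 trophectoderm markers 1 rose and 5 fell in the same comparison, of 10 fibroblast markers 3 rose and 3 fell, and of 5 leukocyte markers 1 fell; their part was not tested. Phc1 rose by 0.56 ± 0.19 (adjusted p = 0.0177), a call lost without tx2 replicate 2 (0.51, adjusted p = 0.063), with library totals alone (0.38, adjusted p = 0.0518), with no low-count filter (0.53, adjusted p = 0.0547) and in a fit of these groups alone (0.55, adjusted p = 0.0902). Without the high-mitochondrial WT replicate 1, which held 1026 CPM of Phc1 against 573 and 584 CPM in the others, the change of Phc1 was 0.24 (adjusted p = 0.206), that of Rnf2 0.68 (adjusted p = 1.25e-05) that of Cbx2 1.13 (adjusted p = 1.93e-07), that of Kdm2b 0.99 and that of Pcgf2 0.44, and 4 members were called.

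In KO against WT iPSC, 7 of the 8 members were not called, and their libraries overlapped. WT replicate 1, with 12.2% mitochondrial reads, widened this spread. Phc1 held 690, 678 and 753 CPM in KO clones, against 1026, 573 and 584 CPM in WT replicates 1, 2 and 3, so its groups overlapped only through replicate 1. Kdm2b was the single member called, 1 of 8 where 10.7% of genes were called (4.78% higher and 5.87% lower), with 202, 199 and 206 CPM in KO clones, against 124, 177 and 175 CPM in WT clones (0.35 ± 0.10, adjusted p = 0.0369). The low WT value is replicate 1, and without it the log2 fold change was 0.21 (adjusted p = 0.0719), so the call rests on that library. It was also lost without KO replicate 1, 2 or 3 (0.35, 0.37 and 0.34, adjusted p = 0.108, 0.0828 and 0.116), with library totals alone (0.41, adjusted p = 0.082), with no low-count filter (0.36, adjusted p = 0.0629) and in a fit of these groups alone (0.37, adjusted p = 0.287). Cbx7 had 197, 188 and 210.0 CPM in KO clones, against 136, 205 and 190.0 CPM in WT clones, and was not called (0.16 ± 0.14, adjusted p = 0.493; 0.01 without WT replicate 1).

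Pcgf2 had 109, 104 and 115 CPM in KO clones, against 174, 123 and 113 CPM in WT clones (-0.32 ± 0.12, adjusted p = 0.0963), and was called without WT replicate 3 (-0.43, adjusted p = 0.0255). Without WT replicate 1, whose 174 CPM is the high value, the change of Pcgf2 was -0.10 (adjusted p = 0.503). Without the same library Phc1 was at 0.29 and Rnf2 at 0.05, against -0.04 and -0.20 with it, and neither was called. Cbx2 (0.12 ± 0.13), Cbx8 (0.60 ± 0.30) and Pcgf6 (0.08 ± 0.09) were not called, nor were they without that library (-0.01, 0.70 and 0.07). Scml2 fell by 1.26 ± 0.36 (adjusted p = 0.0295) to 3.52, 5.51 and 5.15 CPM in KO clones, against 14.1, 4.56 and 15.4 CPM in WT clones, and its groups overlapped; without WT replicate 1 it was not called (-1.09, adjusted p = 0.0694). Of the marker lists, 1 of 7 trophectoderm markers was called lower and no fibroblast or leukocyte marker was called (edgeR). The share of Cbx7 in the sum of Cbx2, Cbx7 and Cbx8 was 74.1 ± 0.47% in KO clones and 73.8 ± 1.23% in WT clones, and by gene-body length 39.1% in KO clones and 38.8% in WT clones, where Cbx2 led with 57.0% in KO clones and 58.2% in WT clones.

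Several pairs of paralogs were called in opposite directions in comparisons that share libraries and so are not independent; the share of opposite calls among other gene pairs was not computed. Of the 13 comparisons, Phc1 and Phc2 were both called in 7, in opposite directions in 7. Cbx7 and Cbx8 were both called in 4 and were opposite in 4. These counts include calls that alternatives lost. For Phc1 this was WT iPSC against tx2 day 12 GFP+ cells (0.24, edgeR adjusted p = 0.206 without WT replicate 1). For Cbx8 it was tx2 day 10, GFP+ against GFP- (-0.87, edgeR adjusted p = 0.0797 in a fit of these groups alone). Pcgf6 and Bmi1 were opposite in 4 of 4, Pcgf2 and Bmi1 in 3 of 4, and Rybp and Yaf2, the paralogs that define variant PRC1, in 4 of 5. Cbx7 and Cbx2 were opposite in 2 of 3 and Phc1 and Phc3 in 4 of 5, while Pcgf2 and Pcgf6 went the same way in 3 of 3. Rnf2 and Ring1 were both called in 0. By member, Kdm2b was called higher in 11 of 13 comparisons, Cbx7, Phc1 and Pcgf2 in 7, Cbx2 and Pcgf6 in 5, Rnf2 in 3 and Cbx8 in 1. Cbx8 was called lower in 4, Cbx2 and Pcgf6 in 2, and Pcgf2 and Phc1 in 1. Of the Kdm2b calls, those in KO against WT iPSC and at nx2 day 14 against day 10 GFP- were lost in some alternatives. So were those at tx2 day 10, GFP+ against GFP-, and at tx2 day 12 against day 10 GFP+. Over these 13 comparisons the share of all genes called ran from 10.7% to 77.3%. It ran from 4.78% to 38.8% for genes called higher and from 5.87% to 39.4% for genes called lower.

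The wider list of 24 other PRC1 genes, all tested, split both ways, as all genes did. At nx2 day 10 against MEF 10 were called higher and 12 lower, where 38.8% of all genes were called higher and 37.6% lower. The median log2 fold change of the 24 was -0.438, against 0.063 over all genes. Rybp had 106, 68.1 and 70.2 CPM in day 10 cells, against 29.0, 25.3 and 24.8 CPM in MEF (1.62 ± 0.13), and Yaf2 had 13.4, 8.38 and 6.98 CPM in day 10 cells, against 43.4, 46.6 and 43.0 CPM in MEF (-2.22 ± 0.17). L3mbtl2, an MBT-domain partner of PCGF6, rose by 1.74 ± 0.11, Fbrsl1 by 1.89 ± 0.10, and the deubiquitinase gene Usp7 and the WD-repeat gene Wdr5 by 1.56 ± 0.09 and 1.57 ± 0.10. At tx2 day 12, GFP+ against GFP-, 8 were called higher and 10 lower, where 31.2% of all genes were called higher and 30.4% lower. Fbrsl1 rose by 1.43 ± 0.09, L3mbtl2 by 1.26 ± 0.14, Wdr5 by 1.04 ± 0.12 and Usp7 by 0.95 ± 0.10, and Yaf2 fell by 1.22 ± 0.17. In KO against WT iPSC 2 were higher and 2 lower, where 4.78% of all genes were called higher and 5.87% lower. Bcor rose by 0.48 ± 0.07 and Scmh1 by 0.54 ± 0.12, and Bcorl1 (-0.60) and Scml2 (-1.26) were lower. Without WT replicate 1, Bcor was at 0.53 and Scmh1 at 0.55, and Auts2 (0.73), Mga (0.42) and Max (0.29) were called higher as well. Bcorl1 was still called lower without that replicate (-0.40, edgeR adjusted p = 0.0495), and Scml2 was not called (-1.09). Without day 10 replicate 1 the changes from MEF were 1.41 for Rybp, -2.51 for Yaf2, 1.90 for L3mbtl2, 2.02 for Fbrsl1, 1.42 for Usp7 and 1.72 for Wdr5.

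Of 12 listed Polycomb target genes 7 were tested. At nx2 day 10 against MEF 2 were higher and 3 lower, where 38.8% of all genes were called higher and 37.6% lower. At tx2 day 12, GFP+ against GFP-, 4 were higher and 3 lower, where 31.2% of all genes were called higher and 30.4% lower. These counts alone say little about the targets. The cell-cycle inhibitor gene Cdkn2b, in the locus that CBX7 and BMI1 are known to repress, held 3.65 ± 0.84 CPM in nx2 day 10 cells and 38.6 ± 2.93 CPM in MEF (-3.40 ± 0.29). Its neighbour Cdkn2a went the other way, with 35.3 ± 5.18 CPM in day 10 cells and 10.9 ± 0.59 CPM in MEF (1.69 ± 0.23). Without day 10 replicate 1 these changes were -3.50 for Cdkn2b and 1.80 for Cdkn2a. Cdkn2a held 6.93 ± 2.00 CPM in WT iPSC and 41.3 ± 4.09 CPM in tx2 day 12 GFP+ cells (-2.56 ± 0.16, and -2.42 without WT replicate 1).

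The likeness of other genes to a member was measured as Pearson's r over the 14 group means of log2 CPM, centred within each batch, among 13111 genes. Mitochondrial genes and genes with predicted or clone-type names, such as Gm or Rik, were left out. The points share batches, lines recur across the nx2 and across the tx2 groups, and r carries no test. In nx2 the mean of Cbx7 was 1.64 CPM in MEF and 161 to 223 CPM in the other groups. The weight of MEF in r was not tested. Cbx7 was most like Fgf4 (r = 0.999), Tfcp2l1 (0.994) and Foxh1 (0.993). Phc1 was most like Platr10 (0.989), Platr27 (0.988) and Esco2 (0.988). Cbx8 was most like Maged1 (0.985) and Dhdds (0.983). Pcgf2 was most like Brca2 (0.983), Pcgf6 like Chd1l (0.991), Rnf2 like Ipo11 (0.992), Kdm2b like Platr20 (0.986) and Cbx2 like Rbm4b (0.949). Between members, r was 0.965 for Cbx7 with Phc1, 0.953 for Pcgf6 with Phc1, 0.922 for Pcgf2 with Kdm2b and 0.888 for Rnf2 with Kdm2b. Cbx8 ran opposite to Pcgf6 (-0.967), Phc1 (-0.965) and Cbx7 (-0.922), and Cbx2 followed neither Cbx7 (-0.072) nor Cbx8 (0.085).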

How the data were processed

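Gene counts were deposited as one table for each of the 2 batches. Per the file headers, the authors counted reads with featureCounts 1.5.3 over whole gene bodies, by gene name and with strand setting 2, so introns count and reads shared by overlapping genes do not. Per the submitters' processing notes the tools were HISAT2 2.1.0, featureCounts and DESeq2 1.18.1, and the build was mm10. All columns were tied to a sample (0 without one).

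From the counts, edgeR 4.0.16 (R 4.3.3; quasi-likelihood F test with robust estimation, filterByExpr, TMM scaling) was fitted once per batch on all 21 libraries, with Benjamini-Hochberg adjustment over all genes tested and a threshold of 0.05. CPM are counts per 1000000 of TMM-scaled totals, and ± after a log2 fold change is its SE. Ratios are log2 of CPM + 0.25, tested by exact permutation. Tables and plots used Python 3.11.15, pandas 2.3.3, scipy 1.17.1 and matplotlib 3.10.9. The scripts were tested on simulated counts. Alternatives were DESeq2 1.42.0, RLE size factors, library totals, other filters, a replicate block, only the groups compared, a pseudocount of 1 CPM, gene-body length, and leaving out each library. Leaving out the libraries over 8% mitochondrial reads was added after seeing the data.

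The members and lists were chosen with earlier results of these data known. All 9 members were to be named in every comparison, with their paralogs, up to 4 other PRC1 genes of lowest p, Cdkn2a and Cdkn2b, and up to 3 genes most like each member. One listed gene is not reported here. Same-numbered tx2 libraries deviated together in 30 of 30 pairs (r 0.126 to 0.593), so their numbers pair them. In nx2 32 of 63 pairs did so, and among iPSC clones 0 of 3. By the sample titles the same 3 lines recur across the nx2 groups, and another 3 across the tx2 groups. The main fit and the permutation tests did not use this pairing, which entered only in the replicate block.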

Additional observations from a re-analysis of the deposited data

Results flagged for a closer look

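Tests of the difference between GFP effects at 2 days (edgeR quasi-likelihood, adjusted over all genes) picked out 1 gene in nx2 and 13 in tx2. The genes looked at were the 8 members tested, the 24 other PRC1 genes and the named targets Cdkn2a and Cdkn2b. Of all genes, 1.54% were called for this difference in nx2 and 27.3% in tx2, so the 2 counts alone say little about PRC1. In nx2, the effect on Phc2 was lower at day 14 than at day 12 by -0.43 on the log2 scale. In tx2, the GFP effect was higher at day 12 than at day 10 for the members Pcgf2 (0.72), Pcgf6 (0.63), Cbx7 (0.60) and Kdm2b (0.59). It was also higher for Auts2 (0.86), Wdr5 (0.69), L3mbtl2 (0.67), Fbrsl1 (0.60), Mga (0.58) and Usp7 (0.50). It was lower for Cdkn2b (-1.79), Scmh1 (-0.65) and Cdkn2a (-0.63). All 10 fibroblast markers (median -2.43) and 3 of 5 leukocyte markers were lower in the same tx2 difference, and 3 of 7 trophectoderm markers in the nx2 difference; their part was not tested.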

How the results depend on the processing

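No result changed direction past the threshold under any alternative run. Library totals alone moved the median log2 fold change of all genes to 0.343 at nx2 day 10 against MEF and 0.313 in nx2 iPSC against MEF. Of 211 counts of called members, 190 stayed within 1.5 times. Fitting only the groups compared gave 2 called members at nx2 day 14 against day 10 GFP- (4 in the full fit), and 2 members and 928 genes for the nx2 difference of GFP effects (0 and 249). DESeq2 gave 1 member and 415 genes there, and the replicate block 1 member. The replicate block also added Rnf2 at tx2 day 12 (0.31, adjusted p = 0.0289) and changed no other member's call. Only the groups compared gave 5171 genes for WT iPSC against tx2 day 12 GFP+ (7761) and 448 for KO against WT (1619). KO against WT had 0 called members (1) with library totals, no low-count filter, only those groups, or without the libraries over 8% mitochondrial reads. Library totals gave 1 member (3) at tx2 day 12 against day 10 GFP+ and 2 (4) for the tx2 difference of GFP effects. The cause of these shifts was not tested. Leaving out 1 library gave 2 to 5 members at nx2 day 14 against day 10 GFP-, 117 to 171 genes and 0 to 0 members for the nx2 difference, and 2107 to 3946 genes and 0 to 2 members at tx2 day 12 against day 10 GFP+. It gave 832 to 2581 genes and 0 to 2 members for KO against WT, 6678 to 7806 genes for WT iPSC against tx2 day 12 GFP+, and 3 to 4 members for the tx2 difference. With gene-body length in place of exons 80 of 98 shares moved beyond their SD. For the differences in ratios, with 1 CPM added or 1 library left out, 27 alternatives moved beyond the SD or changed sign and 519 did not. Counts of Cbx8, 7 to 15 reads in nx2 day 10 libraries, limit the precision of its values.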
